A study of Homo sapiens with 8 samples.

Results

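The genes of the mitochondrial ribosomal proteins were followed by RNA-seq in LNCaP-FGC, a prostate cancer cell line whose growth depends on androgens. They were chosen by name, as every GENCODE gene whose symbol is MRPL or MRPS followed by a number. That rule gave 78 genes, of which 76 (48 MRPL, 28 MRPS) had transcripts matched in the table of 19431 genes. MRPL45 and MRPS21 were not analysed here. The 4 groups received, for 24 h, DMSO as the control, I-CBP112 (which occupies the bromodomains of the acetyltransferases p300 and CBP), A-485 (which blocks their catalytic activity) or both compounds, with 2 libraries each. No source used here gives the doses, and all libraries came from a single cell line. Since no label states that the 2 libraries of a group were separate cultures, p-values measure only the spread between these libraries, and that spread may be technical.

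Mitochondrial ribosomes translate the few messages of mitochondrial DNA, all of them for membrane subunits of the oxidative phosphorylation complexes. Their ribosomal RNA is made inside the organelle, but every protein of the particle is encoded in the nucleus, translated in the cytosol and imported. Some of these proteins descend from bacterial ribosomal proteins and others exist only in mitochondria. Some members go against their symbols or the list's name: MRPS18A and MRPS30 sit in the large subunit, and MRPS36 (listed as KGD4 by RefSeq) is a subunit of the 2-oxoglutarate dehydrogenase complex and not of the ribosome.

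The table held FPKM, a fragment density corrected for transcript length and library size. Transcripts were summed per gene and libraries were brought to a common scale by a trimmed mean of log ratios, so a level below is a scaled FPKM. A gene was tested where its level reached 1 in at least 2 libraries, which held for 75 of the 76 genes and for 11873 genes in all. The exception was MRPL30, a large-subunit protein, at no more than 0.01 in any library. That value rests on the 2 transcripts matched to it, and whether other transcripts of the gene were expressed was not examined. Totals of FPKM ran from 696917 to 808443 in the libraries numbered 1 and from 181486 to 408673 in those numbered 2, and the depth in reads is unknown. Of 6 luminal prostate markers, all were present, and 4 (KLK2, KLK3, TMPRSS2 and KRT18) fell with A-485 and with both compounds by limma. The other markers, KRT8 and HOXB13, were not called. KLK3 had 2231 and 2006 in DMSO and 51.4 and 50.5 with both. KRT8 had 1203 and 764 in DMSO and 1448 and 740 with both, and HOXB13 271 and 183 against 211 and 170. The sum of the 6 therefore mixes genes that moved differently, and with both compounds KRT8 was its largest part. The summed luminal level was 4106 to 5109 in DMSO, 2627 to 2850 with I-CBP112, 1813 to 2164 with A-485 and 1360 to 2055 with both. The 3 stromal markers summed to 3.53 to 3.64, 5.92 to 6.16, 9.53 to 10.4 and 9.60 to 11.8 in the same order, with COL1A2 at or near 0 and COL1A1 called higher with A-485 and with both. The 3 neuroendocrine markers summed to 19.3 to 30.9, 32.4 to 33.6, 35.8 to 38.2 and 75.7 to 78.8, with CHGA at or near 0 and ENO2 and SYP called higher with both. The 2 basal markers measured, KRT5 and KRT14, summed to at most 15.6, and of the immune markers CD68 alone was measured, at 1.45 to 5.92. The part of these markers in the values below was not tested.

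Start regions of 4 members are shown because the results turn on these genes or, for MRPL52, because it holds both motifs that were more frequent in members than in other genes. MRPL38 holds both motifs as well, but its start region is not printed, nor are those of the called MRPS2, MRPS25 and MRPS35. MRPL24 was lower with A-485 and with both compounds, MRPS18A with A-485 and MRPS12 with both. Each sequence runs 5′ to 3′ on the gene's strand, from 250 bases before the RefSeq start (GRCh38.p14) to 30 bases after it. Capitals mark matches to 1 of 6 motifs. MRPL24 is at chr1:156741059-156741338 (minus strand), MRPS12 at chr19:38930694-38930973 (plus), MRPS18A at chr6:43687762-43688041 (minus) and MRPL52 at chr14:22829637-22829916 (plus).
MRPL24: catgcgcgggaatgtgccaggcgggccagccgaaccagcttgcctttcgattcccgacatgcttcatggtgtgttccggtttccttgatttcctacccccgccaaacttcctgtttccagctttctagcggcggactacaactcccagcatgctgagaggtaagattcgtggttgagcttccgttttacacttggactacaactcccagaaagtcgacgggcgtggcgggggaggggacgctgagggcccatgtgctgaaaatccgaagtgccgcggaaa
MRPS12: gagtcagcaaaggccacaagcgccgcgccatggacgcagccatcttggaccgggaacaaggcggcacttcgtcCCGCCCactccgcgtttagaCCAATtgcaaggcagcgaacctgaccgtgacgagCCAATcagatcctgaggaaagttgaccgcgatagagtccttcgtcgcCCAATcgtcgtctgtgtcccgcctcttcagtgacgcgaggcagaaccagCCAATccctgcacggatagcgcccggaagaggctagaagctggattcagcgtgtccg
MRPS18A: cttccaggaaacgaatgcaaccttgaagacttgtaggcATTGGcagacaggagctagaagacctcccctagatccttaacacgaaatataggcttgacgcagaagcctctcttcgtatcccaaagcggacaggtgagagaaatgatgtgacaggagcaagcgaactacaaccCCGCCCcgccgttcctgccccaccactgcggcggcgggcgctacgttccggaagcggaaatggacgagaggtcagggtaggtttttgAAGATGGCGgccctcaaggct
MRPL52: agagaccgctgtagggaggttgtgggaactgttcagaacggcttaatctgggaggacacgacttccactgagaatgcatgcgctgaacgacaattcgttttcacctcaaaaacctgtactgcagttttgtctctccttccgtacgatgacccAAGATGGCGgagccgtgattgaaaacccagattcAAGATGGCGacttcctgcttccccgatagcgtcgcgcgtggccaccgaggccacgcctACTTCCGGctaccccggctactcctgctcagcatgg

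The 6 motifs were searched on both strands of the full RefSeq window, which reaches 50 bases after the start. They were the YY1 motif AAGATGGCG, the ETS motif CCGGAAGT bound by GABPA, the NRF1 motif GCGCATGCG, the E-box CACGTG bound by MYC and others, the CCAAT box and the GC box GGGCGG bound by SP1. No motif lies inside another. Of the 75 tested members, 66 had a window (82 windows), and the 9 without were MRPL2, MRPL10, MRPL13, MRPL15, MRPL21, MRPL23, MRPL35, MRPS28 and MRPS36. The YY1 motif stood in 15.9% of the members' windows, in 3.61% of the windows of all tested genes and in 1.75% of all 35116 windows. The ETS motif stood in 17.1%, 7.85% and 4.14%. The other 4 were near the tested genes' share, with 61% against 66.8% for the GC box, 32.9% against 34.8% for the CCAAT box, 9.76% against 9.49% for the E-box and 3.66% against 3.3% for NRF1. In the windows printed, MRPS12 held 4 CCAAT boxes at 157, 123, 76 and 27 bases before the start. MRPL52 held 2 YY1 motifs at 98 and 64 bases before the start and an ETS motif at 6 bases before it. MRPS18A held its YY1 motif 10 bases after the start, and MRPL24 none of the 6 in the stretch printed. With A-485 the median log2 fold change was -0.35 in the 13 members that held a YY1 motif and -0.36 in those without, and with an ETS motif -0.24 in 12 members against -0.40 without. These differences were not tested. These matches describe letters and not binding.

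In DMSO the members were abundant. Their median level was 85.6 against 13.7 over all tested genes, and 72 of the 75 lay above the latter. FPKM is a value per length, but whether that correction holds for short transcripts was not tested. The leading transcript of MRPL52, for 1, has 398 bases. The members' median length was 1035 bases, against 2059 over all tested genes, so the order of levels is a description. MRPL20, a large-subunit protein of bacterial descent, was highest at 447 and 380 in the DMSO libraries. MRPL12, which forms the flexible stalk that recruits translation factors, followed at 489 and 288. Next by mean came MRPL52, MRPL24, MRPS24 and MRPL41, with means of 344, 314, 308 and 298. The DMSO libraries of these 6 lay between 242 and 489, and the ranges of MRPL20 and MRPL12 overlapped, so their order was not separated by this spread. At the other end stood MRPL50 with 5.99 and 10.8, then MRPS31, MRPS36, MRPL35, MRPS10 and MRPS14 with means from 11.2 to 22.6. The highest mean was 49.4 times the lowest. All tested members together made up 0.726% to 0.814% of the FPKM of a library, against 24.9% to 34.3% for the cytosolic ribosomal proteins.

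The summed level of the members was 9388 and 8783 in DMSO, 7297 and 8412 with I-CBP112, 6445 and 7108 with A-485 and 7057 and 8097 with both. On this scale each treated library lay below both DMSO libraries. The sums of the treated groups overlapped each other, except that both A-485 libraries lay below both I-CBP112 libraries. In bulk RNA, fewer cells of a type and less RNA per cell cannot be told apart.

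With A-485, most members of both subunits had small negative changes on the trimmed-mean scale, called the main scale below. The median log2 fold change of the 75 members was -0.36, but 0.11 on the values as deposited and -0.03 with libraries scaled to 1 total only. All tested genes had medians of 0.01, 0.37 and 0.31, so the members lay under them by 0.25 to 0.37 on these scalings. On the main scale 61 members lay below 0. Without A-485 replicate 1 it lay 0.20 under that of all genes. Only 2 members were called by limma (Benjamini-Hochberg adjusted p under 0.05), both lower, MRPL24 and MRPS18A, and their changes were -0.50 and -0.42 on the values as deposited. That is 2.67% of the members against 3.23% of all tested genes, so the count is not a result about the members. At an unadjusted p under 0.05 there were 21 members (28%), against 25.6% of all genes. The adjusted count was 0 when any 1 of the other 7 libraries was left out and 9 without DMSO replicate 2. With the replicate number as a block, limma called 19 lower, or 25.3% of the members against 9.29% of all genes, and 14 lower (9.22% of all genes) when length and GC content were corrected as well.

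**Figure D1:**
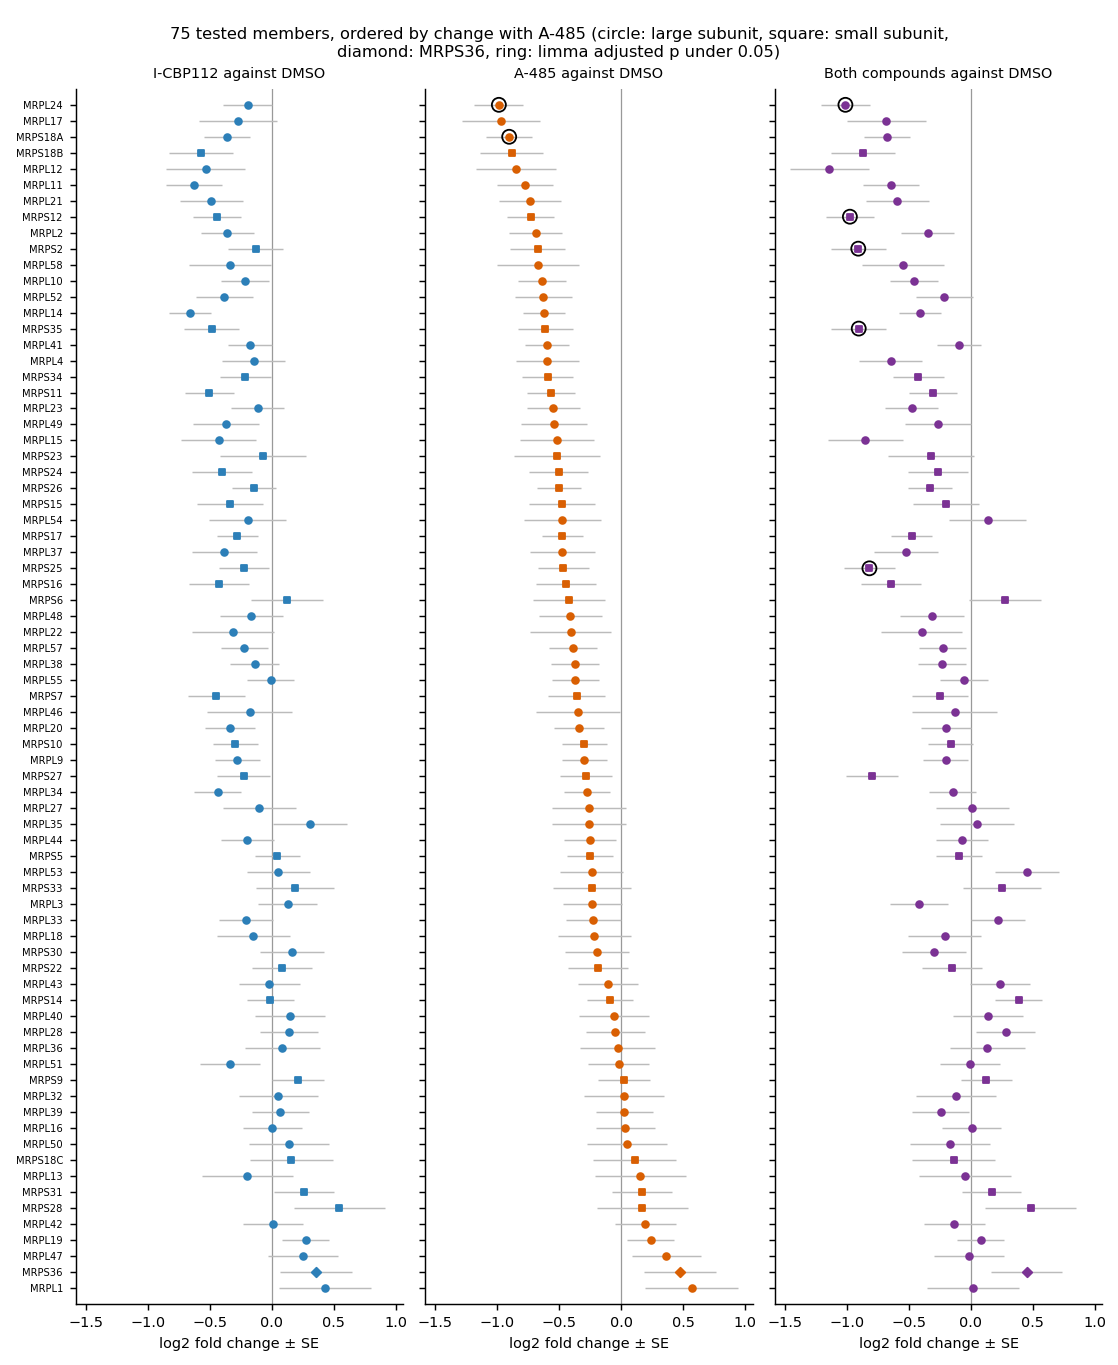
Log2 fold change (horizontal axis, ± SE of the limma fit) of each of the 75 tested members (vertical axis) against DMSO with I-CBP112, A-485 and both compounds, ordered by A-485. With A-485, 61 lay below 0; rings mark the 2 (A-485) and 5 (both) with limma adjusted p under 0.05; on values as deposited the members' medians were above 0 with A-485 and with both compounds, and with both also when libraries were scaled to 1 total only.

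MRPL24 is a large-subunit protein whose bacterial counterpart binds ribosomal RNA early in assembly. Its level was 342 and 286 in DMSO, 243 and 307 with I-CBP112, 152 and 162 with A-485, and 155 and 154 with both. The A-485 and combination libraries lay far below the rest and the I-CBP112 libraries overlapped DMSO. The change was -0.99 ± 0.20 (SE, 1.98-fold lower on the log2(level + 1) scale, limma adjusted p = 0.0354) with A-485 and -1.01 ± 0.20 (2.02-fold, limma adjusted p = 0.0190) with both. Both compounds and A-485 alone differed by -0.02 ± 0.20 (limma adjusted p = 0.972).

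MRPS18A, grouped here with the mitochondria-specific proteins, is 1 of 3 human copies of a bacterial small-subunit protein, and the copy found in the large subunit. Its level was 80.9 and 63.8 in DMSO, 51.4 and 60.4 with I-CBP112, 38.1 and 37.8 with A-485, and 46.0 and 43.2 with both. No treated library reached DMSO. The change was -0.90 ± 0.19 with A-485 (1.87-fold lower, limma adjusted p = 0.0390), and -0.68 ± 0.19 with both, which passed only with the block (limma adjusted p = 0.0564, and 0.0270 with it). Its paralog MRPS18B, of the small subunit, had 92.4 and 78.7 in DMSO, 57.2 and 57.3 with I-CBP112, 40.9 and 51.1 with A-485, and 35.8 and 59.7 with both. All 6 treated libraries of MRPS18B lay below DMSO, yet neither -0.89 ± 0.26 with A-485 nor -0.87 ± 0.26 with both was called without the block (limma adjusted p = 0.0867 and 0.0700, and 0.0458 and 0.0379 with it). MRPS18C, also of the small subunit, had 66.2 and 104 in DMSO, 83.4 and 103 with I-CBP112, 68.2 and 118 with A-485 and 63.0 and 90.2 with both. Its groups overlapped throughout, with changes of 0.11 ± 0.33 with A-485 and -0.14 ± 0.33 with both, neither called by limma. Whether the copies differ in response was not tested.

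MRPL17, MRPL12 and MRPL11 were among the lowest with A-485 and passed only with the block. MRPL17, a large-subunit protein near the exit of the peptide tunnel, had 217 and 282 in DMSO, 167 and 251 with I-CBP112, 102 and 155 with A-485 and 126 and 188 with both. MRPL12 had 489 and 288 in DMSO, 289 and 232 with I-CBP112, 256 and 169 with A-485 and 196 and 147 with both. MRPL11, at the base of the same stalk, had 136 and 87.7 in DMSO, 66.2 and 74.9 with I-CBP112, 63.2 and 63.4 with A-485 and 70.9 and 68.4 with both. In each gene the A-485 libraries lay below both DMSO libraries. The libraries of a shared number moved together in MRPL17, where number 2 was the higher in every group, and in MRPL12, where number 1 was. For MRPL12 with both compounds the change was -1.14 ± 0.32 (limma adjusted p = 0.0591), the lowest of any member, and ± 0.14 with the block (limma adjusted p = 0.00403). For MRPL17 with A-485 it was -0.97 ± 0.32 (limma adjusted p = 0.111, and 0.00865 with the block).

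**Figure D2:**
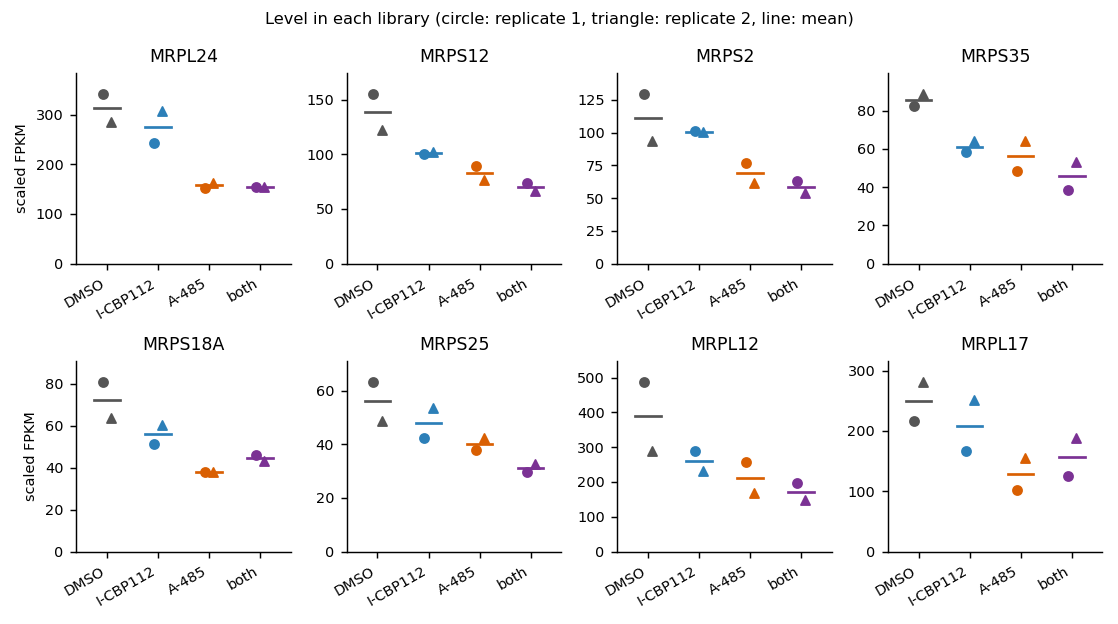
Level (scaled FPKM, vertical axes from 0) in each of the 8 libraries by group for the 6 members called in a comparison with DMSO and for MRPL12 and MRPL17; circles are replicate 1, triangles replicate 2 and lines group means. MRPL24 lay at 152 to 162 in all A-485 and combination libraries and at 286 and 342 in DMSO.

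Members at the upper end with A-485 were MRPL1, MRPS36, MRPL47, MRPL19, MRPL42 and MRPS28, with log2 fold changes from 0.17 to 0.57, and limma called none of them. MRPL1, which forms the mobile stalk beside the tRNA exit site, had 17.2 and 37.3 in DMSO and 34.1 and 42.7 with A-485, so its groups overlapped. MRPS36 had 12.7 and 12.7 in DMSO and 14.2 and 22.7 with A-485, and was the sole member whose A-485 libraries both lay above DMSO, as they did for 26.7% of all genes. At the same time 41 of the 75 members had both A-485 libraries below both DMSO libraries, against 26.0% of all tested genes. Compared within each number, 58 of the 75 members (77.3%) were lower with A-485 in both pairs, against 37.5% of all tested genes, and the members' medians were -0.47 and -0.27.

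**Figure D3:**
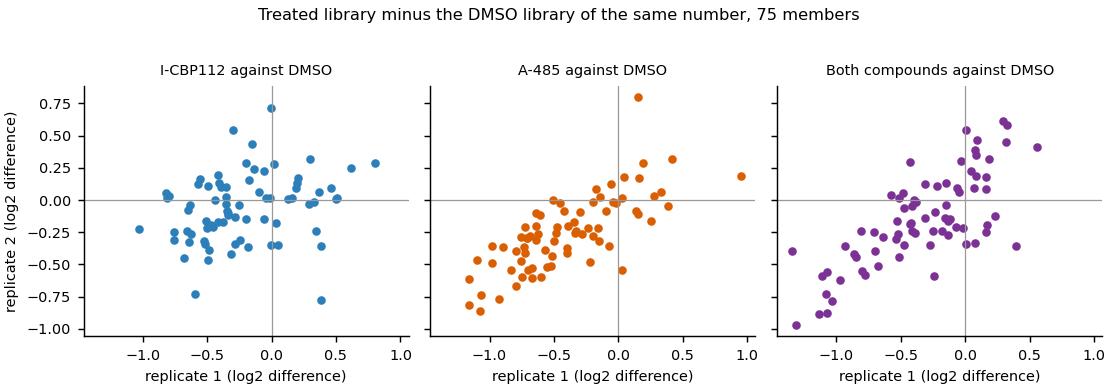
Each point is 1 of the 75 members; the axes give the log2 difference of the treated library from the DMSO library of the same number, for number 1 (horizontal) and number 2 (vertical). With A-485, 58 members lie below 0 on both axes, with both compounds 45 and with I-CBP112 33. Over all tested genes the shares were 37.5%, 34.0% and 27.2%.

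With A-485 the medians were -0.34 over the 49 tested large-subunit genes and -0.44 over the 25 small-subunit genes, but 0.14 and 0.04 on the values as deposited. On the main scale 40 and 21 lay below 0. Proteins grouped as of bacterial descent (44 genes) and as specific to mitochondria (30, MRPS18A and MRPS18B among them) had medians of -0.35 and -0.38. On the values as deposited these were 0.12 and 0.09, where all genes had 0.37. The difference between subunits was not tested. The lists share their libraries and their control.

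With both compounds the median of the members was -0.21, but 0.49 on values as deposited and 0.03 with 1 total only. All genes had 0.04, 0.61 and 0.25, and 56 of 75 members lay below 0 on the main scale. It lay 0.25 under that of all genes, 0.11 under it without replicate 1 of the combination, 0.37 under it without its replicate 2 and 0.11 under it on values as deposited. The 5 members called lower by limma were MRPL24, MRPS12, MRPS2, MRPS25 and MRPS35, at -0.26 to -0.09 on the values as deposited. At an unadjusted p under 0.05 there were 17 (22.7%), against 27.6% of all genes. The 5 called are 6.67% of the members against 7.13% of all tested genes, and again no result about the members. The count was 0 without DMSO replicate 1 and without either combination library, 2 without any 1 of the I-CBP112 or A-485 libraries and 7 without DMSO replicate 2. With the replicate block it was 15, or 20% of the members against 12.1% of all genes.

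Of the 5 called genes, 4 encode small-subunit proteins. MRPS12, a bacterial homolog at the decoding centre, had 156 and 123 in DMSO, 101 and 102 with I-CBP112, 89.1 and 76.9 with A-485 and 73.3 and 66.3 with both. The groups did not overlap, and the change with both was -0.98 ± 0.19 (1.97-fold lower, limma adjusted p = 0.0196). MRPS2, another bacterial homolog, had 130 and 93.3 in DMSO, 101 and 100.2 with I-CBP112, 77.0 and 61.2 with A-485 and 63.0 and 53.7 with both. I-CBP112 libraries of MRPS2 lay within the range of DMSO and the A-485 and combination libraries under it, and the change with both was -0.91 ± 0.22 (1.88-fold lower, limma adjusted p = 0.0387). MRPS35, found only in mitochondria, had 82.6 and 89.0 in DMSO, 58.3 and 64.0 with I-CBP112, 48.4 and 64.0 with A-485 and 38.5 and 53.3 with both. All of its treated libraries were lower than DMSO, and the change with both was -0.90 ± 0.22 (1.87-fold lower, limma adjusted p = 0.0392). MRPS25, also specific to mitochondria, had 63.5 and 48.9 in DMSO, 42.5 and 53.4 with I-CBP112, 38.0 and 42.2 with A-485 and 29.6 and 32.8 with both. Its I-CBP112 libraries overlapped DMSO and its combination libraries were lowest, with -0.82 ± 0.20 (1.76-fold lower, limma adjusted p = 0.0413).

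The largest positive values with both compounds belonged to MRPS28, MRPL53, MRPS36, MRPS14, MRPL28 and MRPS6, from 0.27 to 0.48, and none passed the test. MRPS28, a relative of bacterial S1, had 105 and 196 in DMSO and 154 and 260 with both, so that its replicates differed more than its groups. MRPL53, a mitochondria-specific protein of the large subunit, had 145 and 153 in DMSO and 178 and 235 with both, without overlap (0.45 ± 0.26, limma adjusted p = 0.291). Both combination libraries lay below both of DMSO for 34 members, against 26.6% of all genes, and above for 4, against 28.8%.

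With I-CBP112 alone the median was -0.18 against 0.01, and 51 of 75 members lay below 0, against 48.5% of all genes. The members' median remained below 0 on the values as deposited (-0.13) and with 1 total only (-0.05). Limma called 0 members, as it called 0% of all genes, while 5 members (6.67%) had an unadjusted p under 0.05, against 11.1% of all genes. With the replicate block 17 (22.7%) did, against 18.1%. The medians of the pairs were -0.30 in number 1 and -0.03 in number 2, and the members' median lay 0.19 below that of all genes (0.18 on values as deposited), 0.06 below it without I-CBP112 replicate 1 and 0.28 below it without replicate 2. Both I-CBP112 libraries were below both of DMSO for 23 members, against 18.5% of all genes. The lowest value belonged to MRPL14, a large-subunit protein at the interface with the small subunit, with 80.5 and 75.5 in DMSO, 53.1 and 45.2 with I-CBP112, 49.1 and 51.5 with A-485 and 57.5 and 59.2 with both. Its treated libraries all lay below DMSO, and the change with I-CBP112 was -0.66 ± 0.17 (limma adjusted p = 0.322). MRPL11, MRPS18B, MRPL12, MRPS11 and MRPL21 followed, from -0.63 to -0.49.

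The compounds were also compared with each other at the doses used. The sign of the members' median changed with the scaling or with the libraries kept. A-485 minus I-CBP112 gave a median of -0.17, but 0.26 on the values as deposited and 0.03 with 1 total only (all genes 0.00, 0.33 and 0.18). Leaving out A-485 replicate 1 took it to -0.03, I-CBP112 replicate 2 to -0.06, I-CBP112 replicate 1 to -0.27 and A-485 replicate 2 to -0.28. Relative to all genes the members' median was -0.17, -0.07 as deposited and -0.15 with 1 total only. With 1 library left out this ran from -0.28 to -0.03. Compared within each number, 47 members (62.7%) were lower with A-485 than with I-CBP112 in both pairs, against 35.1% of all tested genes. Limma called 0 members (4, or 5.33%, at an unadjusted p under 0.05, against 14.3% of all genes) and 0.775% of all genes as lower. With the block it called MRPL17 (2.36% of all genes).

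Both compounds minus I-CBP112 gave -0.09, but 0.60 on the values as deposited and 0.01 with 1 total only (all genes 0.01, 0.55 and 0.10). The median was 0.05 without replicate 1 of the combination, 0.02 without I-CBP112 replicate 2, -0.20 without I-CBP112 replicate 1 and -0.25 without replicate 2 of the combination. Limma called 0 members (6, or 8%, at an unadjusted p under 0.05, against 15.8% of all genes) and 2.04% of all genes as lower, or MRPL24 and MRPS2 with the block (4.36%). Both compounds minus A-485 gave 0.13, but -0.03 without A-485 replicate 1 and -0.02 without replicate 2 of the combination, and 0.02 after the length and GC correction. It was 0.22 without replicate 1 of the combination and 0.21 without A-485 replicate 2. Limma called 0 members (5, or 6.67%, at an unadjusted p under 0.05, against 12.2% of all genes) and 0.733% of all genes as lower.

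The interaction, the change with both minus the sum of the single changes, had a median of 0.28 over members and 0.02 over all genes. The members' median was 0.50 on the values as deposited, 0.05 with 1 total only and 0.13 after the length and GC correction. All genes had 0.20, -0.19 and 0.01, so relative to them the members lay at 0.31, 0.24 and 0.12. The members' median was 0.17 without A-485 replicate 1, and 0.18 without I-CBP112 replicate 1 or without replicate 2 of the combination. It was 0.40 without replicate 1 of the combination, 0.39 without A-485 replicate 2 and 0.37 without I-CBP112 replicate 2. Limma called 0 members and 0% of all genes, and 6 members (8%) had an unadjusted p under 0.05, against 8.93% of all genes. With the block 19 members (25.3%) did, against 15.5% of all genes, and limma again called 0. The largest interaction was that of MRPL14 (0.87 ± 0.24, limma adjusted p = 0.408). These comparisons share libraries, so their medians are not independent of those against DMSO.

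GC content of the transcripts moved with the response. Across the 75 members, Pearson's r between GC content and log2 fold change was -0.61 (Spearman's rho -0.62) with A-485, -0.42 (-0.40) with I-CBP112 and -0.30 (-0.32) with both. Over all tested genes it was -0.24, -0.19 and -0.05. The points share the same 8 libraries, and genes are not independent replicates. MRPL1 and MRPS36, with 36.3% and 35.8% GC, had 0.57 and 0.47 with A-485, whereas MRPL41, the member with the highest GC content at 71.9%, had -0.60. MRPL50, the member with the lowest GC content at 35.0%, differed from DMSO by 0.26 in number 1 and -0.16 in number 2 with A-485. A correction of each library for length and GC content took the members' medians to -0.14, -0.28 and -0.23 with I-CBP112, A-485 and both, and r with A-485 to -0.30. On the corrected values limma called 5 members lower with A-485 (5.65% of all genes) and 10 with both (10.9%). The members were also short, with a median of 1035 bases against 2059 over all tested genes. With A-485, r with length was 0.01 over the members and 0.17 over all genes. For the mean log2 level r was -0.41, against -0.29 over all genes. The parts of base composition and of length in the members' values were not tested further.

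**Figure D4:**
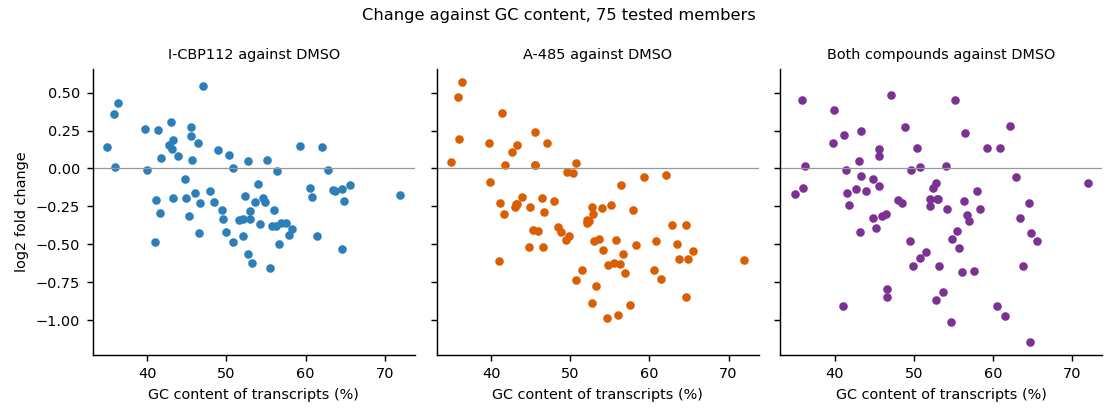
Log2 fold change against DMSO (vertical axis) and GC content of the transcripts in percent (horizontal axis) for the 75 tested members, with I-CBP112, A-485 and both compounds; each point is 1 gene. Pearson's r was -0.42, -0.61 and -0.30.

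**Figure D5:**
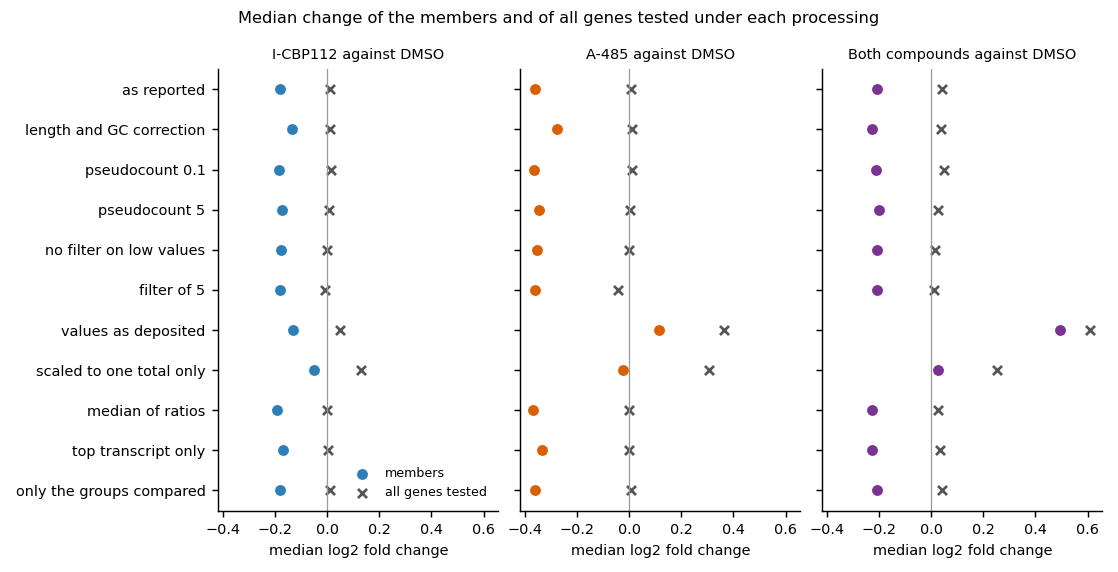
Median log2 fold change (horizontal axis) of the 75 members (filled circles) and of all genes tested (crosses) under each processing (vertical axis), for the 3 comparisons with DMSO. The members' median lay below that of all genes under every setting plotted, but above 0 on the values as deposited with A-485 and with both compounds and, with both, when libraries were scaled to 1 total only.

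Transcripts of a member could differ without a change of the gene. Of the tested members 53 had at least 2 transcripts in the table, and in 15 the leading transcript held under 50% of the gene's FPKM in some library. Its share differed by over 10 percentage points without overlap between groups in 6 of these 53 with I-CBP112, in 2 with A-485 and in 1 with both, where 8.84%, 7.63% and 7.58% of all genes with several transcripts did. The widest gap was in MRPS33, a small-subunit protein, whose leading transcript held 54.2% and 65.2% in DMSO and 31.0% and 28.8% with I-CBP112. These shares rest on how the authors' estimator divided fragments between overlapping transcripts, on which no source used here has details.

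The rest of the machinery is given for comparison. The 6 proteins of the ribosome, or attached to it, whose symbols fall outside the rule all lay below 0 with each treatment, with medians of -0.25, -0.40 and -0.33 (I-CBP112, A-485, both), but -0.21, 0.08 and 0.38 on the values as deposited, and limma called none (0, 1 and 1 at an unadjusted p under 0.05), or DAP3 with A-485 and with both under the block. DAP3, a GTP-binding protein of the small subunit, had 271 and 243 in DMSO, 176 and 271 with I-CBP112, 110 and 134 with A-485 and 123 and 164 with both. Its A-485 libraries were below DMSO, with -1.07 ± 0.26 (limma adjusted p = 0.0597, and 0.0207 with the block). Of 29 tested assembly and ribosomal RNA factors, limma called 0 with A-485 (13 at an unadjusted p under 0.05) and 2 fell with both, the helicase DDX28 (-0.70 ± 0.18, limma adjusted p = 0.0496) and the pseudouridine synthase RPUSD4 (-0.62 ± 0.16, limma adjusted p = 0.0472). With the block limma called 6 of these factors with A-485 (5 lower, 1 higher) and 7 with both (6 lower, 1 higher). Over all tested genes it called 9.29% and 12.1% lower with the block, and 3.23% and 7.13% without it. The shares of all genes at an unadjusted p under 0.05 are given above for each treatment. The medians of the 29 factors were -0.20, -0.39 and -0.20 (I-CBP112, A-485, both), but -0.14, 0.07 and 0.47 as deposited. Of 16 translation and tRNA modification factors none passed in these comparisons by limma, with medians of 0.00, -0.09 and -0.04, but 0.04, 0.32 and 0.57 as deposited, and 1, 3 and 4 genes at an unadjusted p under 0.05. With the block 1 was called lower with A-485 and 2 with both, among them the ribosome recycling factor MRRF in each.

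The 10 tested genes of mitochondrial DNA transcription and replication had medians of 0.05, 0.25 and 0.03 (I-CBP112, A-485, both). On the values as deposited these were 0.14, 0.64 and 0.58, against 0.05, 0.37 and 0.61 for all genes. Among these 10 genes TWNK, the replicative helicase, fell with A-485 and with both. Its level was 14.9 and 12.2 in DMSO, 10.2 and 9.25 with I-CBP112, 6.26 and 5.19 with A-485 and 4.48 and 4.77 with both, without overlap between DMSO and any treatment. The changes were -1.11 ± 0.19 (limma adjusted p = 0.0200) and -1.36 ± 0.19 (limma adjusted p = 0.00450). TFB2M, a factor that opens mitochondrial promoters, fell with both (-1.10 ± 0.20, limma adjusted p = 0.0143), and MTERF2, which binds mitochondrial DNA, rose with A-485 (1.07 ± 0.22, limma adjusted p = 0.0400). With the block MTERF2 was also called higher with both (0.81 ± 0.22 and limma adjusted p = 0.0573 without it, 0.0419 with it). The 13 protein genes of mitochondrial DNA, whose messages these ribosomes read, had medians of -0.20, 0.11 and -0.33, but -0.17, 0.61 and 0.42 as deposited, and limma called none, nor had any an unadjusted p under 0.05. The 83 tested cytosolic ribosomal protein genes had medians of -0.15, -0.55 and -0.33, but -0.12, -0.06 and 0.43 as deposited. Limma called 1 of them lower with A-485 and 1 with both, against 3.23% and 7.13% of all genes. With the block limma called 29 lower with A-485 (34.9%, against 9.29% of all genes) and 4 with both (4.82%, against 12.1%).

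Of 8 tested transcription factors and coactivators known to act on nuclear genes for mitochondrial proteins, MYC passed by limma with A-485 and with both, and the others did not. With the block limma also called ESRRA lower with each and PPRC1 lower with both. The level of MYC was 241 and 198 in DMSO, 158 and 158 with I-CBP112, 61.0 and 52.0 with A-485 and 19.1 and 14.7 with both. The groups did not overlap, and the changes were -1.94 ± 0.20 (limma adjusted p = 0.00486) with A-485 and -3.63 ± 0.20 (limma adjusted p = 0.000135) with both. The factor YY1 itself had 44.7 and 51.4 in DMSO, 44.1 and 52.0 with A-485 and 42.2 and 55.4 with both, all overlapping. MYC was lower with both compounds than with A-485 alone (-1.69 ± 0.20, limma adjusted p = 0.0101).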

How the data were processed

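RNA-seq values of 8 libraries (4 groups of 2) were analysed. The authors deposited 1 table of 81591 transcripts, named as counts; 78.3% of its values were not whole, and they were taken as FPKM per transcript, computed by the authors before deposit. Tools named in the submitters' processing notes are Cufflinks, STAR, DESeq2 and DESeq, with builds GRCh37 and hg19 (versions and roles: not given in the sources used here). Per the labels' protocols, Trizol was used for RNA, with DNase digestion. Ensembl identifiers of 74209 transcripts (91.0%) matched release 29 of GENCODE, used for names, lengths and GC content only. FPKM were summed per gene, scaled to a total of 1e+06 and by a trimmed mean of log ratios (30% of ratios and 5% of levels trimmed), and tested as log2(value + 1) with limma 3.58.1 (R 4.3.3; 1 mean per group, trended robust variance, 4 residual degrees of freedom, Benjamini-Hochberg over 11873 genes, threshold 0.05). The fit was run on simulated data in which libraries varied independently, so a shift shared by a replicate number was not simulated.

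Replicate numbers were treated as pairing the libraries, since the labels' descriptions give libraries of 1 number a shared prefix. Deviations of equal numbers correlated at 0.145 to 0.425 between groups, across genes. The blocked fit (3 residual degrees of freedom) is given where it changes a count by over 1.5 times or a call of a named gene. Named members were those called, the 6 lowest and 6 highest against DMSO and in DMSO level, the MRPS18 paralogs, members not tested, and called genes of the other lists. DAP3, YY1, MRPS33, MRRF, ESRRA and PPRC1 were picked after values were seen. Members and lists were chosen with earlier results of these data known. Promoter windows come from RefSeq (GRCh38.p14). Further luminal markers are not reported here.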

Additional observations from a re-analysis of the deposited data

How the results depend on the processing

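The number of members called lower with A-485 (2) was 19 with the replicate block, 5 with the length and GC correction, 14 with both of these, and 0 without a filter on low values, on values as deposited, with libraries scaled to 1 total only, with the top transcript only and with only the groups compared. With both compounds against DMSO (5) it was 15, 10 and, counting 1 member called higher, 19 in the same order, and 2 without a filter, 0 as deposited, 1 with 1 total only and 0 with only the groups compared. With both compounds against I-CBP112 (0) it was 2, 3 and 9, and with A-485 against I-CBP112 (0) it was 1, 1 and 3. In the same order, limma called 9.29%, 5.65% and 9.22% of all genes lower with A-485. With both compounds against DMSO these shares were 12.1%, 10.9% and 14.3%. With the block they were 4.36% for both compounds against I-CBP112 and 2.36% for A-485 against I-CBP112. Counts given without a share of all genes, also those with a library left out, are no result about the members. Leaving out 1 library gave 0 to 9 with A-485 and 0 to 7 with both compounds; a lone library was assumed to vary like the other groups. For the members, the block changed no other count of calls by over 1.5 times. The cause of these differences was not tested. The other settings (pseudocounts 0.1 and 5, a filter of 5, median of ratios) kept every count of members called within 1.5 times. Relative to all genes, the members' median ranged with a library left out from -0.46 to -0.20 with A-485, -0.37 to -0.11 with both and -0.28 to -0.06 with I-CBP112. The sign turned for both compounds against I-CBP112 (-0.26 to 0.04) and against A-485 (-0.04 to 0.21). With 2 libraries a group and unknown read depth, calls per gene rest on few residual degrees of freedom.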
